A study of Danio rerio with 8 samples.

Results

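The splicing factors and heterogeneous nuclear ribonucleoproteins (hnRNPs) of 24 hpf zebrafish embryos were described on whole-embryo expression arrays of a Holt-Oram syndrome model. Members were the probes whose gene symbol starts with srsf, sfrs, snrp, sf3a, sf3b, hnrnp, hnrp or prpf. Symbols came from RefSeq accessions only, so probes of these genes under other accessions were not counted. The rule found 152 of the 39162 probes with values, and these covered 66 of the 12792 genes that could be named on the array. Another 10 genes of the current annotation fit the rule and had no probe under their accession, among them hnrnpa1a, hnrnpm and sf3b1. By symbol, 16 genes with 46 probes were SR proteins, 12 genes with 19 probes were proteins of the small nuclear ribonucleoproteins (snRNPs), 8 genes with 13 probes were SF3a and SF3b subunits, 18 genes with 47 probes were hnRNPs and 12 genes with 27 probes were pre-mRNA processing factors (PRPF).

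The 8 arrays fell into 3 groups of AB strain embryos, each array made from 50 pooled embryos. MO-Tbx5a+miR-19a embryos (n = 3) received 1.5 ng of a morpholino that blocks translation of tbx5a together with 0.25 ng of a miR-19a mimic. MO-Tbx5a morphants (n = 3) received the same morpholino with 0.25 ng of a control mimic, and MO-Ct embryos (n = 2) received 1.5 ng of a control morpholino with 0.25 ng of the control mimic. All injections were made at the 1-cell stage. For MO-Tbx5a+miR-19a the label of the treatment gives MO-19a, a morpholino, whereas their titles and the design text name miR-19a or its mimic, and the mimic was taken as given here. The labels also give 0.5 ug of RNA and another labelling kit for MO-Tbx5a+miR-19a, against 200 ng for MO-Tbx5a and MO-Ct. Kit and treatment therefore cannot be told apart in any comparison with MO-Tbx5a+miR-19a. The paper's methods name a single kit with 200 ng of RNA instead, so the labelling of this group is not settled. No probe was named tbx5a, and the morpholino acts on translation, so the depletion was not checked. The labels call the samples of a group replicates, and the paper calls them biological replicates. The labels do not say whether the pools were injected separately, and p-values may therefore measure technical spread only.

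Pre-mRNA splicing is carried out by the spliceosome, in which snRNPs recognise the splice sites and the branch point. Each snRNP holds a ring of Sm proteins around its RNA plus proteins of its own, the SF3a and SF3b complexes anchor the U2 snRNP at the branch point, and PRPF proteins build and remodel the tri-snRNP and the catalytic core. SR proteins mostly promote the use of nearby exons, and hnRNPs coat the transcript, often mask splice sites and also act in export and stability. In vertebrates many genes of both classes regulate their own amounts through alternative exons that send the transcript to decay, so that different stretches of one transcript need not report the same amount of RNA.

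Values are log2 signals as normalised by the authors. They ran from 4.06 to 19.4, with array medians of 7.77 to 7.80. Member probes averaged 5.36 to 15.997 over the 8 arrays, with a median of 11.66, against 7.79 for all probes. The median SD within a group was 0.134 in MO-Tbx5a+miR-19a, 0.12 in MO-Tbx5a and 0.113 in MO-Ct for member probes, close to the 0.135, 0.128 and 0.106 of all probes. The raw scans of the MO-Tbx5a+miR-19a arrays followed the deposited columns of their own samples no more closely than the MO-Ct columns. Rank correlations were 0.934 to 0.937 to their own column and 0.933 to 0.95 to the MO-Ct columns. The scans entered no comparison and served only for probe names and flags. All 152 member probes were marked well above background in the 3 scans and none was saturated. These flags cover no MO-Tbx5a or MO-Ct array. Of 36 marker genes of embryonic tissues 31 had a probe. Array means of the skeletal muscle, neural and epidermal lists lay between 12.74 and 17.82, as a whole embryo would give, whereas the 2 endothelial markers averaged 6.58 to 7.06.

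MO-Tbx5a morphants were compared with MO-Ct embryos to see which splicing genes accompany the loss of Tbx5a. A probe was called when its fold change was above 1.3, with p under 0.05 and an adjusted p (FDR) under 0.05 in limma over all probes. In MO-Tbx5a morphants 62 of the 152 member probes were called (40.8%), against 38.4% of all probes. The count of calls was thus close to that of the array as a whole, and the direction was not: 19 member probes (12.5%) were higher, against 18.7% of all probes, and 43 (28.3%) were lower, against 19.6% of all probes. The median change was -0.16 for members and 0.01 for all probes. Leaving out each array in turn kept 42 of the 62 calls each time, and 20 were lost at least once. Since members are bright, probes with a mean above 9.195 were also taken alone. Members among them were higher in 9.68% and lower in 31.5%, and all such probes were higher in 22.2% and lower in 23.6%. The lean to lower calls was in part shared by named genes with several probes. Apart from the brightest probe of each gene, member probes were higher in 17.4% and lower in 31.4%. Over all named genes such probes were higher in 16.9% and lower in 27%. Brightest probes were higher in 6.06% and lower in 24.2% for members, and in 16.5% and 20.6% for all named genes. Over all member probes, the array medians were 11.90, 11.55 and 11.78 in MO-Tbx5a+miR-19a, 11.47, 11.55 and 11.34 in MO-Tbx5a and 11.81 and 11.82 in MO-Ct, with 1 MO-Tbx5a+miR-19a array as low as the highest MO-Tbx5a array.

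Co-injection of the mimic was examined by comparing MO-Tbx5a+miR-19a embryos with MO-Tbx5a morphants. Here 76 of 152 member probes were called (50%), against 42.2% of all probes. Of these, 56 (36.8%) were higher in MO-Tbx5a+miR-19a, against 20.2% of all probes, and 20 (13.2%) were lower, against 21.9%. The median change was 0.25 for members and -0.02 for all probes. MO-Tbx5a+miR-19a embryos were also set against MO-Ct, where 12 member probes were called (7.89%), against 11.2% of all probes. Of these 8 (5.26%) were higher, against 5.24%, and 4 (2.63%) were lower, against 5.95%. The 3 comparisons share arrays, so values are given side by side and the overlap of their calls was not counted.

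**Figure D1:**
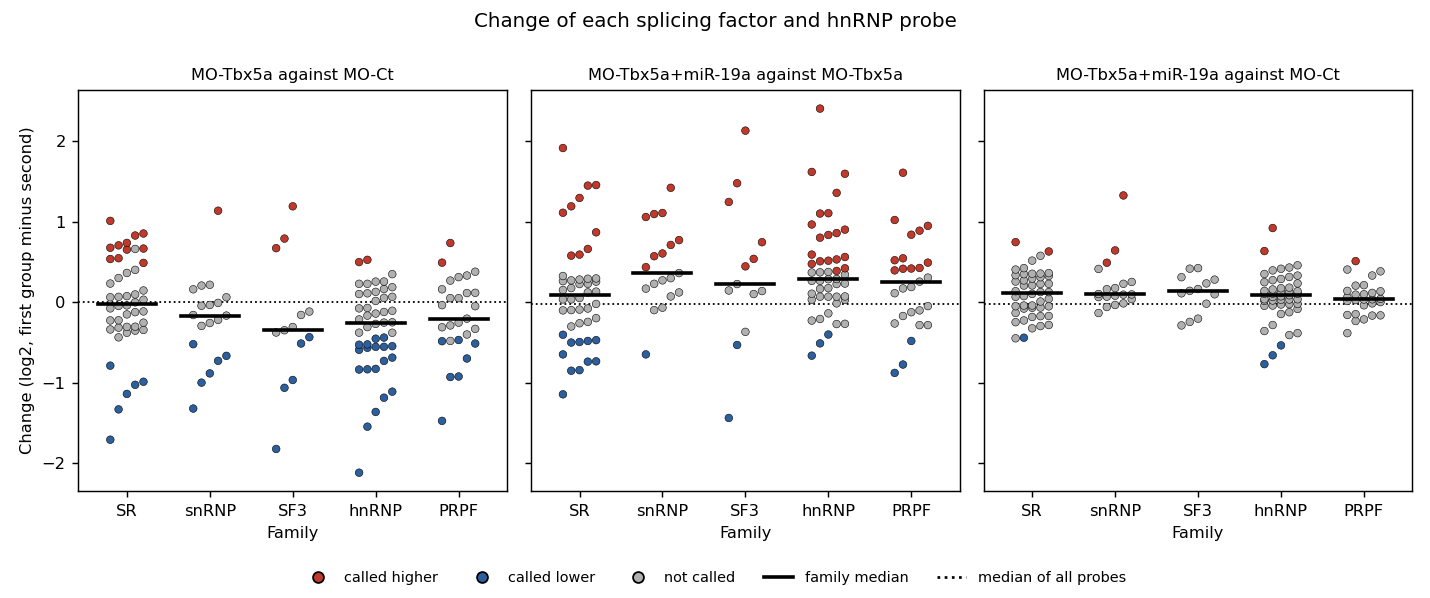
Change of each of the 152 member probes by family in 3 comparisons, on the log2 scale (first group minus second), with red and blue points for called probes, bars for the family median and a dotted line for the median of all probes. In MO-Tbx5a versus MO-Ct 19 hnRNP probes were called lower and 2 higher, whereas 11 SR probes were called higher and 6 lower.

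By family, counts are read beside the 18.7% higher and 19.6% lower of all probes. In MO-Tbx5a morphants 2 of 47 hnRNP probes were higher (4.26%) and 19 lower (40.4%), with a median change of -0.25. Among the 19 snRNP probes 1 was higher (5.26%) and 6 were lower (31.6%), with a median of -0.17. The SF3 subunits had 3 higher (23.1%) and 5 lower (38.5%) of 13 probes, and the PRPF proteins 2 higher (7.41%) and 7 lower (25.9%) of 27. SR proteins had 11 higher (23.9%) and 6 lower (13%) of 46 probes, and a median of -0.02, whose sign turned over other normalisations (up to 0.04). The excess of higher SR calls was gone without MO-Ct replicate 2, where 8 were higher and 8 lower, and turned at a fold change above 2, where 1 was higher and 4 lower. The hnRNP calls were 0 higher and 13 lower without MO-Ct replicate 2, and 0 higher and 5 lower at a fold change above 2. Of all 39162 probes 1259 were higher and 1641 lower at a fold change above 2. The difference between families was not tested. In a pool of whole embryos, fewer cells of a type and less RNA per cell cannot be told apart, and this holds for every change given here.

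SR proteins, which bind exonic enhancers through RNA recognition motifs and carry an arginine- and serine-rich tail, had called probes in both directions. The largest fall was on 1 probe of srsf3b (NM_201323), the counterpart of the smallest human SR protein. Probe A_15_P446625 read 12.66, 12.17 and 12.91 in MO-Tbx5a+miR-19a, 10.67, 10.55 and 10.77 in MO-Tbx5a and 12.49 and 12.25 in MO-Ct. MO-Tbx5a lay apart from both other groups, which overlapped. The change was -1.71 ± 0.19 (SE) in MO-Tbx5a versus MO-Ct (0.306-fold, adjusted p = 3.34e-05) and 1.92 ± 0.17 in MO-Tbx5a+miR-19a versus MO-Tbx5a (adjusted p = 3.53e-06). The other probes of srsf3b, both brighter, had changes of -0.22 and 0.08 in MO-Tbx5a and were not called.

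Several SR genes were higher in MO-Tbx5a morphants. The 4 probes of srsf1b (NM_200593), a counterpart of the founding SR protein SRSF1, were all called, with changes of 0.55 to 0.83. Its probes A_15_P656651 and A_15_P133766 differed by at most 0.05 on any array and count as 1 measurement. The call of A_15_P109016 was lost without MO-Ct replicate 1, and those of A_15_P656651 and A_15_P133766 without MO-Ct replicate 2. A_15_P712351, which kept its call, read 7.95, 8.09 and 8.07 in MO-Tbx5a+miR-19a, 8.47, 8.51 and 8.61 in MO-Tbx5a and 7.86 and 7.54 in MO-Ct. Its change was 0.83 in MO-Tbx5a versus MO-Ct (adjusted p = 0.00033) and -0.49 in MO-Tbx5a+miR-19a versus MO-Tbx5a (adjusted p = 0.0035). A_15_P656651 and A_15_P133766 were not called in the latter comparison. There they moved by 0.75 and 0.77 relative to the brightest srsf1b probe, A_15_P109016, and both differences were called. Single probes of srsf1a, srsf9, srsf6b and srsf3a were also higher in MO-Tbx5a versus MO-Ct, by 0.49 to 0.74. Of these, the call of srsf3a was lost without MO-Ct replicate 2 and that of srsf6b without either MO-Ct array or MO-Tbx5a replicate 1.

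The largest rise of the family was on probe A_15_P215236 of srsf4 (NM_199574). It read 9.69, 9.87 and 9.61 in MO-Tbx5a+miR-19a, 10.80, 11.06 and 10.74 in MO-Tbx5a, and 9.88 and 9.83 in MO-Ct, so that MO-Tbx5a was above every other array. The change was 1.01 ± 0.13 (SE) against MO-Ct (2.02-fold, adjusted p = 0.000118), and MO-Tbx5a+miR-19a versus MO-Tbx5a gave -1.14 ± 0.12 (adjusted p = 1.25e-05). The brightest srsf4 probe had changes of -0.05 and -0.02 in these comparisons and was not called in either. Probe A_15_P761566 was called lower in MO-Tbx5a+miR-19a versus MO-Tbx5a (-0.85) but was not called in MO-Tbx5a versus MO-Ct. The remaining srsf4 probe, A_15_P182471, went the other way, with changes of -0.34 and 0.30, and was not called in either. For srsf7a (NM_205673), an SR protein with a zinc knuckle, the direction was the reverse of that on A_15_P215236. The 2 further probes fell by 1.14 and 0.99 in MO-Tbx5a, while the brightest had a change of 0.10.

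The gene srsf5b (NM_001002610) is given because the study listed it, and since that list was made on these arrays it is no independent evidence. The study listed srsf5b under a GenBank record, whereas the probes given here carry the RefSeq record. They need not include the probe that the study listed, and were not compared with its values. Probe A_15_P466085 read 8.64, 8.63 and 8.43 in MO-Tbx5a+miR-19a, 9.36, 9.28 and 9.26 in MO-Tbx5a and 8.67 and 8.62 in MO-Ct. It was higher by 0.66 in MO-Tbx5a versus MO-Ct (adjusted p = 0.000933) and lower, with a change of -0.73, in MO-Tbx5a+miR-19a versus MO-Tbx5a (adjusted p = 0.000126). The other 3 srsf5b probes, A_15_P668546, A_15_P719801 and A_15_P120141, had changes of 0.37, -0.35 and 0.03 in MO-Tbx5a and were not called. Under some alternatives A_15_P668546 was called higher there and A_15_P719801 lower. In MO-Tbx5a+miR-19a versus MO-Tbx5a, A_15_P668546 was also called lower (-0.65, adjusted p = 0.000956 in limma). A_15_P719801 and A_15_P120141 had changes of 0.28 and 0.04 in that comparison and were not called. In srsf2b the brightest probe was uneven within MO-Tbx5a, at 13.98, 14.64 and 15.55, and was not called.

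The snRNP proteins were led by the Sm core, the ring shared by the U1, U2, U4 and U5 snRNPs. Its 8 genes on the array had 12 probes, of which 6 were called lower and 0 higher in MO-Tbx5a morphants, with 8 at an unadjusted p under 0.05 in limma. Of all probes 19.6% were lower. All 12 changes were negative, between -1.32 and -0.03, with a median of -0.41. All 6 calls were also made each time 1 array was left out. Under each further normalisation of the already normalised values 6 Sm probes were called lower. In MO-Tbx5a+miR-19a versus MO-Tbx5a, 7 of the 12 were higher and 0 lower, with a median of 0.59, beside 20.2% higher of all probes. Against MO-Ct 0 of the 12 Sm probes were called in MO-Tbx5a+miR-19a, with 2 at an unadjusted p under 0.05 in limma, beside 11.2% called of all probes.

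The only snrpd2 probe (NM_001017582), for SmD2, gave the largest Sm change. It read 13.26, 13.09 and 13.41 in MO-Tbx5a+miR-19a, 11.95, 11.97 and 11.57 in MO-Tbx5a, and 12.99 and 13.31 in MO-Ct. MO-Tbx5a fell to 0.401 times MO-Ct, a change of -1.32 ± 0.16 (SE, adjusted p = 6.44e-05), and the change in MO-Tbx5a+miR-19a versus MO-Tbx5a was 1.42 ± 0.14 (adjusted p = 8.83e-06). For snrpb (NM_205667), which encodes SmB, the probes parted. Probe A_15_P263201 read 10.38, 10.28 and 10.43 in MO-Tbx5a+miR-19a, 9.27, 9.37 and 9.16 in MO-Tbx5a and 10.29 and 10.24 in MO-Ct, a change of -0.998 ± 0.119 in MO-Tbx5a versus MO-Ct (adjusted p = 5.85e-05). The brighter snrpb probe had a change of -0.04 and was not called. Single probes of snrpd1 and snrpd3l and the only probes of snrpd3 and snrpe were also called lower, by changes of -0.88 to -0.52, while snrpf and snrpg had changes of -0.22 and -0.03 and were not called.

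**Figure D2:**
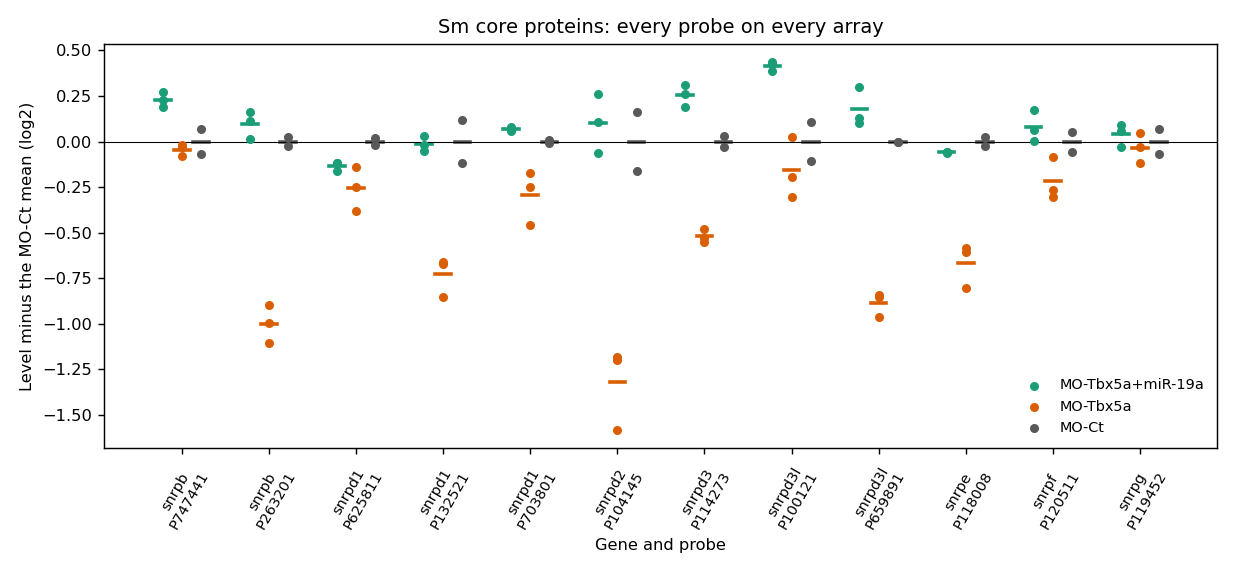
Level of each of the 12 Sm core probes on each array, as log2 difference from the MO-Ct mean of that probe, with a dot per array and a bar for each group mean (n = 3, 3 and 2 arrays). The MO-Tbx5a arrays of snrpd2 lie more than 1 below the MO-Ct mean, and those of snrpg scatter around it.

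Outside the ring, 4 genes with 7 probes encode proteins of single snRNPs, and 1 of these probes was called in MO-Tbx5a morphants. Probe A_15_P621261 of snrpc (NM_173251), the U1 protein that helps to recognise the 5' splice site, read 9.06, 8.98 and 9.04 in MO-Tbx5a+miR-19a, 9.47, 9.66 and 9.89 in MO-Tbx5a and 8.54 and 8.53 in MO-Ct. All 3 groups stood apart, with MO-Tbx5a highest and MO-Ct lowest. The change was 1.14 ± 0.13 (SE) in MO-Tbx5a versus MO-Ct (2.20-fold, adjusted p = 5.42e-05) and -0.65 ± 0.12 in MO-Tbx5a+miR-19a versus MO-Tbx5a (adjusted p = 0.00073). The brighter snrpc probe had a change of -0.17 in MO-Tbx5a, within a spread of 12.50 to 13.23 between the MO-Ct arrays.

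Among the SF3 subunits, 5 probes were lower and 3 higher in MO-Tbx5a morphants, of 13. The largest fall was on probe A_15_P499207 of sf3a2 (NM_201043), a subunit of the SF3a complex of the U2 snRNP. It read 10.78, 10.36 and 10.74 in MO-Tbx5a+miR-19a, 8.49, 8.61 and 8.38 in MO-Tbx5a, and 10.31 and 10.32 in MO-Ct. The change was -1.82 ± 0.14 (SE) in MO-Tbx5a versus MO-Ct (0.283-fold, adjusted p = 6.3e-06) and 2.13 ± 0.13 in MO-Tbx5a+miR-19a versus MO-Tbx5a (4.39-fold, adjusted p = 5.59e-07). The brighter sf3a2 probe had a change of -0.38 in MO-Tbx5a (adjusted p = 0.024), just under the fold threshold. The single probe of sf3a3, another SF3a subunit, was lower, with a change of -0.97, and both probes of sf3b4, an SF3b protein that touches the pre-mRNA near the branch point, were lower, with changes of -0.51, lost without MO-Ct replicate 1, and -1.06.

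The remaining SF3a subunit, sf3a1 (NM_200094), went the other way on its dimmest probe. A_15_P118636 read 7.73, 8.19 and 7.71 in MO-Tbx5a+miR-19a, 9.39, 9.33 and 9.22 in MO-Tbx5a, and 8.21 and 8.03 in MO-Ct. It was higher in MO-Tbx5a by 1.19 ± 0.15 (SE, 2.29-fold, adjusted p = 9.73e-05), and the change in MO-Tbx5a+miR-19a versus MO-Tbx5a was -1.44 ± 0.14 (adjusted p = 6.79e-06). The other probes had changes of -0.16 and -0.31 in MO-Tbx5a and were not called. Both probes of sf3b3 (NM_213503), a scaffold subunit of SF3b, were higher in MO-Tbx5a. A_15_P175806 read 10.59, 10.27 and 10.61 in MO-Tbx5a+miR-19a, 10.72, 10.94 and 10.91 in MO-Tbx5a, and 9.80 and 10.33 in MO-Ct, a change of 0.79 ± 0.17 in MO-Tbx5a versus MO-Ct (adjusted p = 0.00247).

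The hnRNPs held 19 of the 43 member probes called lower in MO-Tbx5a, more than any other family. Probe A_15_P748546 of hnrnpabb (NM_213302), an A/B-type hnRNP, had the largest change of any member. It read 13.59, 13.16 and 13.63 in MO-Tbx5a+miR-19a, 11.03, 11.14 and 10.99 in MO-Tbx5a, and 13.13 and 13.21 in MO-Ct. The MO-Tbx5a arrays lay far below all others, which overlapped. The change was -2.12 ± 0.15 (SE) in MO-Tbx5a versus MO-Ct (0.231-fold, adjusted p = 3.68e-06) and 2.41 ± 0.13 in MO-Tbx5a+miR-19a versus MO-Tbx5a (5.30-fold, adjusted p = 3.71e-07). The other 3 hnrnpabb probes were lower too, with changes of -0.55, -0.83 and -0.57, although the call of the brightest, A_15_P742796, was lost without MO-Ct replicate 2 or MO-Tbx5a replicate 3, and that of A_15_P118595 without MO-Ct replicate 2.

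For hnrnph1l (NM_212589), an H-type hnRNP that binds runs of G, 3 of 4 probes were lower in MO-Tbx5a, with the call of A_15_P209486 lost without MO-Ct replicate 1. Probe A_15_P628901 read 11.30, 11.05 and 11.43 in MO-Tbx5a+miR-19a, 9.61, 9.64 and 9.67 in MO-Tbx5a, and 11.27 and 11.10 in MO-Ct. The change was -1.55 ± 0.13 (SE) in MO-Tbx5a versus MO-Ct (0.343-fold, adjusted p = 9.47e-06) and 1.62 ± 0.12 in MO-Tbx5a+miR-19a versus MO-Tbx5a (adjusted p = 1.46e-06). Other hnRNPs were called lower on 1 or more probes, among them hnrnpul1 (-1.36), 2 probes each of hnrnpa0b and hnrnpl2 (-0.84 and -1.19, -1.11 and -0.83), and the poly(C)-binding hnrnpk (-0.69). The calls of hnrnpaba (-0.53), hnrnpd (-0.52), hnrnpc (-0.55) and both probes of hnrnpa0a (-0.45 and -0.44) were each lost without 1 or both MO-Ct arrays, and those of hnrnpaba and hnrnpa0a also without MO-Tbx5a replicate 1 or 3. Outside the hnRNPs, the lower call of prpf18 (-0.47) was lost without MO-Ct replicate 2, and that of sf3b2 (-0.43) without either MO-Ct array or MO-Tbx5a replicate 3. The 2 hnRNP probes called higher in MO-Tbx5a were A_15_P486430 of hnrnpub and A_15_P120667 of hnrpkl.

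The PRPF family had 7 probes lower and 2 higher in MO-Tbx5a. For prpf8 (NM_200976), the large U5 protein at the centre of the spliceosome, 1 of 5 probes was called in MO-Tbx5a versus MO-Ct. It was the brightest, A_15_P165611, which read 13.10, 12.59 and 12.89 in MO-Tbx5a+miR-19a, 11.83, 12.07 and 11.61 in MO-Tbx5a, and 12.66 and 12.87 in MO-Ct. The change was -0.93 ± 0.17 (SE, 0.525-fold, adjusted p = 0.00102), and in MO-Tbx5a+miR-19a versus MO-Tbx5a it was 1.02 ± 0.15 (adjusted p = 0.000156). The other 4 prpf8 probes had changes of -0.05 to 0.38 in MO-Tbx5a and were not called. Of prpf38b (NM_213489) the dimmer probe was higher by 0.49 in MO-Tbx5a (adjusted p = 0.00457), and the brighter had a change of 0.12. The only probe of prpf4bb, a kinase that acts on the tri-snRNP, was lower, with a change of -0.92, and 2 of 3 probes of prpf31, which binds the U4 RNA, by -0.51 and -0.48. The call of the first was lost without MO-Ct replicate 2, and that of the second when either MO-Ct array, any MO-Tbx5a array or MO-Tbx5a+miR-19a replicate 1 was left out.

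Probes of one transcript often parted. By gene, 12 of the 66 members had called probes that were all higher in MO-Tbx5a versus MO-Ct, 26 had called probes that were all lower, 3 had both, and 25 had none. Of the 46 genes with more than 1 probe, every probe was called in one direction in 4 (hnrnpabb and sf3b4 lower, srsf1b and sf3b3 higher), and some probes were called and others not in 26. The span between the highest and the lowest change of a gene had a median of 0.59 and reached 2.21. These counts and spans by gene were not worked out over all genes of the array, where 38.4% of probes were called. They are therefore not read as particular to splicing genes. To test whether probes moved apart, each further probe was set against the brightest probe of its transcript within each array. In MO-Tbx5a versus MO-Ct 41 of 86 such differences were called in limma, against 42.5% of the 11825 differences over the whole table. In MO-Tbx5a+miR-19a versus MO-Tbx5a 47 were called, against 47.8%, and in MO-Tbx5a+miR-19a versus MO-Ct 3 were called, against 3.99%. Parting of probes was thus common over the whole table, and whether it was more common among splicing genes was not tested. Without MO-Ct replicate 2 fewer differences were called in MO-Tbx5a versus MO-Ct, both for members and over the whole table.

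**Figure D3:**
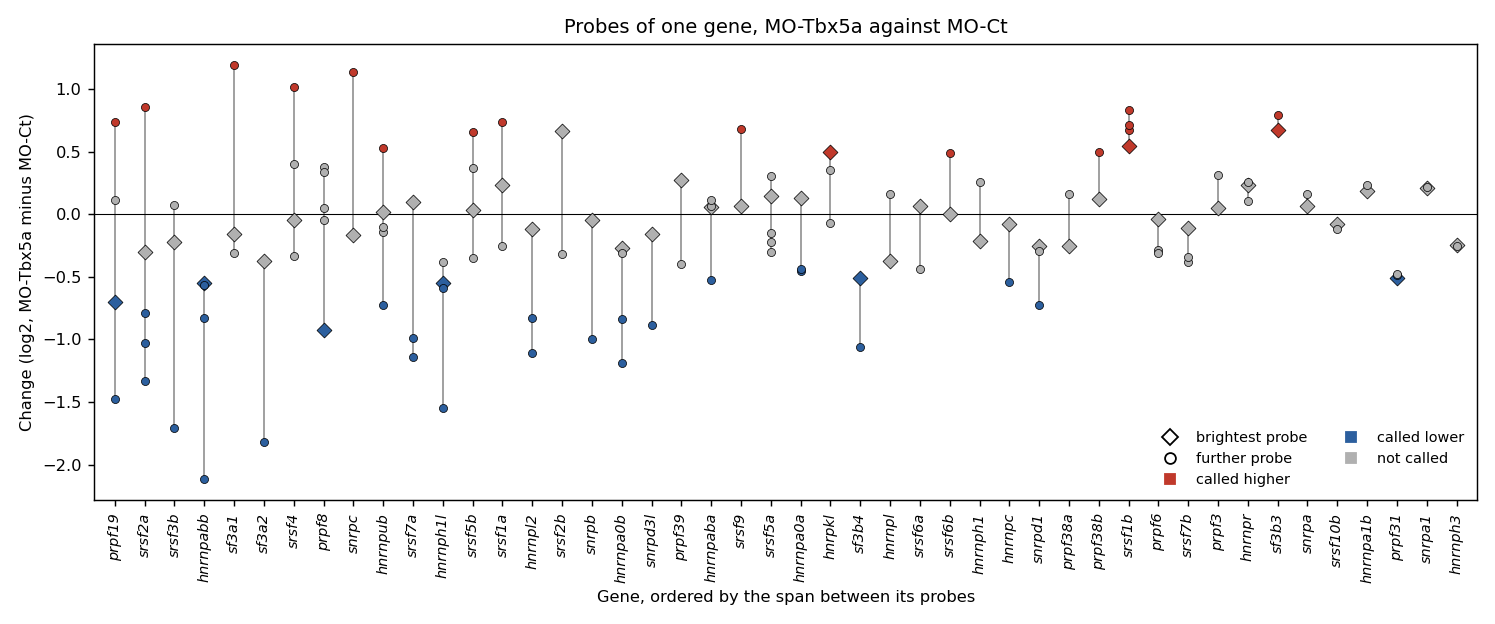
Change in MO-Tbx5a versus MO-Ct (log2) of every probe of the 46 genes with more than 1 probe, ordered by the span between probes, with diamonds for the brightest probe of each gene, circles for further probes and colours for the calls. The span reaches 2.21 in prpf19, and prpf19, srsf2a and hnrnpub hold both red and blue points.

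The brightest probe of each member was called in 30.3% of genes, and further probes in 48.8%. Over all named genes these shares were 37.1% and 43.9%. Further probes were also dimmer, with a median level of 10.29 against 13.12 for the brightest of each member. The place of the probes along the transcripts was not analysed here, and the part of cross-hybridisation between close paralogs such as srsf1a and srsf1b was not tested.

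Both directions were called within 3 of the 13 member transcripts that had 2 or more called probes in MO-Tbx5a versus MO-Ct, against 28.2% of such transcripts over the table. The first was srsf2a (NM_213382), the counterpart of SC35, a marker of nuclear speckles. Its probe A_15_P282348 read 10.52, 10.36 and 10.50 in MO-Tbx5a+miR-19a, 10.90, 10.89 and 11.09 in MO-Tbx5a, and 10.13 and 10.08 in MO-Ct. Its probe A_15_P748231 read 12.52, 12.03 and 12.34 in MO-Tbx5a+miR-19a, 10.82, 11.03 and 10.67 in MO-Tbx5a, and 12.11 and 12.23 in MO-Ct. In MO-Tbx5a A_15_P282348 was thus above every array of both other groups, and A_15_P748231 was below them. The changes in MO-Tbx5a versus MO-Ct were 0.86 ± 0.12 (SE, adjusted p = 0.000177) and -1.33 ± 0.16 (adjusted p = 5.69e-05). Another 2 srsf2a probes fell by 0.79 and 1.03, and the brightest had a change of -0.31 and was not called. Relative to the brightest probe, A_15_P282348 moved by 1.16 ± 0.18 (adjusted p = 0.000628) and A_15_P748231 by -1.03 ± 0.18 (adjusted p = 0.00111).

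The second was prpf19 (NM_201467), the scaffold and ubiquitin ligase of the complex that stabilises the activated spliceosome. A_15_P207951 read 13.63, 13.33 and 13.65 in MO-Tbx5a+miR-19a, 11.86, 11.99 and 11.93 in MO-Tbx5a, and 13.42 and 13.38 in MO-Ct. A_15_P732221 read 9.44, 9.40 and 9.46 in MO-Tbx5a+miR-19a, 10.29, 10.32 and 10.01 in MO-Tbx5a, and 9.34 and 9.60 in MO-Ct. MO-Tbx5a arrays were again apart from all others on both probes, in opposite directions. The changes in MO-Tbx5a versus MO-Ct were -1.47 ± 0.13 (SE, adjusted p = 9.97e-06) and 0.74 ± 0.13 (adjusted p = 0.000969), and in MO-Tbx5a+miR-19a versus MO-Tbx5a they were 1.61 ± 0.12 (adjusted p = 1.25e-06) and -0.77 ± 0.12 (adjusted p = 0.000211). The brightest prpf19 probe, A_15_P101670, fell by 0.70 in MO-Tbx5a, and A_15_P732221 moved by 1.44 ± 0.16 relative to it (adjusted p = 0.000131).

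The last was hnrnpub (NM_001033595), a counterpart of the large nuclear-matrix protein hnRNP U. A_15_P749846 read 10.86, 10.80 and 10.94 in MO-Tbx5a+miR-19a, 10.73, 10.85 and 10.81 in MO-Tbx5a, and 11.68 and 11.37 in MO-Ct. Here the groups with the tbx5a morpholino overlapped and both lay below MO-Ct, with changes of -0.66 ± 0.13 (SE, adjusted p = 0.00736) in MO-Tbx5a+miR-19a and -0.73 ± 0.13 (adjusted p = 0.000719) in MO-Tbx5a. A_15_P486430 read 9.30, 9.56 and 9.68 in MO-Tbx5a+miR-19a, 10.03, 10.10 and 9.94 in MO-Tbx5a, and 9.68 and 9.31 in MO-Ct. It was higher in MO-Tbx5a versus MO-Ct by 0.53 ± 0.15 (adjusted p = 0.0132), and without MO-Ct replicate 2 the change was 0.34 and no longer called. The other 3 hnrnpub probes had changes of -0.14 to 0.02 in MO-Tbx5a.

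**Figure D4:**
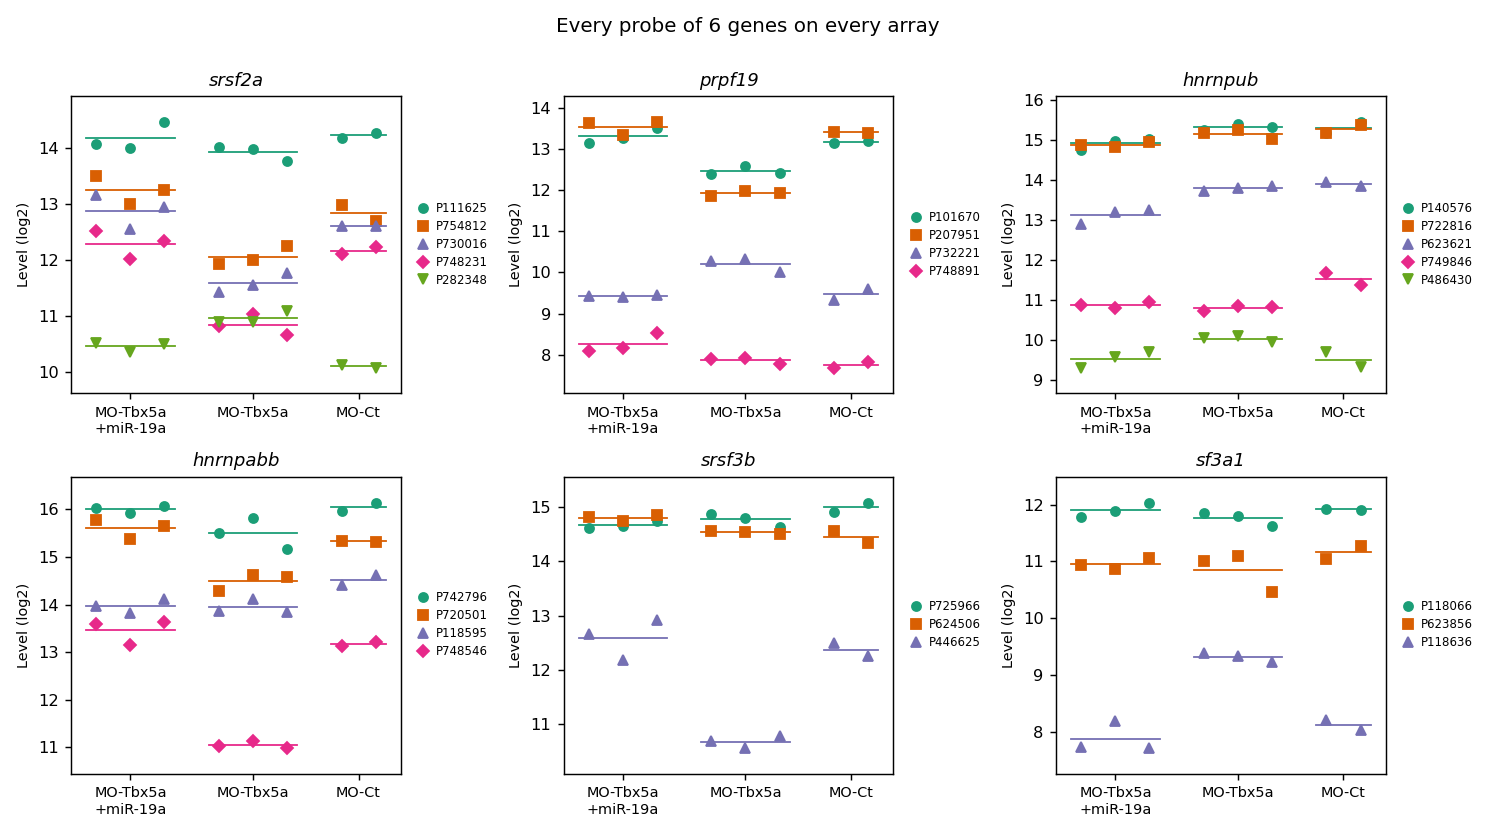
Level (log2) of every probe of srsf2a, prpf19, hnrnpub, hnrnpabb, srsf3b and sf3a1 on every array, with a symbol per probe and a bar for each group mean (MO-Tbx5a+miR-19a n = 3, MO-Tbx5a n = 3, MO-Ct n = 2). Probes of one gene move in opposite directions in MO-Tbx5a for srsf2a and prpf19, whereas all 4 hnrnpabb probes are lower there than in MO-Ct, by changes of -2.12 to -0.55.

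In MO-Tbx5a+miR-19a versus MO-Tbx5a, 32 member genes had called probes that were all higher, 10 had called probes that were all lower, 4 had both and 20 had none. These counts by gene were not made over all genes of the array. Both directions were called in 4 of 20 member transcripts with 2 or more called probes, against 28% over the table, and these were srsf2a, prpf19, srsf1a and prpf8. Families are read beside the 20.2% higher and 21.9% lower of all probes. Higher were 19 hnRNP (40.4%), 12 PRPF (44.4%), 9 snRNP (47.4%), 6 SF3 (46.2%) and 10 SR probes (21.7%). Lower were, in the same order, 3 (6.38%), 3 (11.1%), 1 (5.26%), 2 (15.4%) and 11 (23.9%). SR proteins were the one family with no excess of higher over lower probes, and both their shares were close to those of all probes. The largest changes were on the probes described above. Of those not yet named with their values in this comparison, A_15_P206536 of sf3b4 was higher by 1.48 (adjusted p = 4.61e-05), A_15_P109016 of srsf1b was lower, with a change of -0.84 (adjusted p = 0.000287), A_15_P227436 of prpf38b by -0.88 (adjusted p = 2.74e-05), and A_15_P118954 of sf3b3 by -0.53 (adjusted p = 0.00361). On A_15_P227436 the 3 groups stood apart, reading 9.14, 9.24 and 9.15 in MO-Tbx5a+miR-19a, 10.12, 10.09 and 9.95 in MO-Tbx5a, and 9.55 and 9.57 in MO-Ct.

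The 12 member probes called in MO-Tbx5a+miR-19a versus MO-Ct came from 9 genes. Both probes of snrpa1 (NM_001007383), the U2 protein A', were higher. A_15_P100359 read 13.64, 13.81 and 13.68 in MO-Tbx5a+miR-19a, 13.29, 13.30 and 13.23 in MO-Tbx5a, and 12.95 and 13.18 in MO-Ct, so that every MO-Tbx5a+miR-19a array was above every other array. The change against MO-Ct was 0.65 ± 0.12 (SE, adjusted p = 0.00638), and that of MO-Tbx5a versus MO-Ct was 0.21 ± 0.12 and not called. A_15_P659841 read 10.16, 9.95 and 10.20 in MO-Tbx5a+miR-19a, 9.17, 8.77 and 9.04 in MO-Tbx5a, and 8.03 and 9.52 in MO-Ct. Its change of 1.33 ± 0.31 (adjusted p = 0.0173) rested on MO-Ct replicate 1, without which it was 0.58 and not called, and the call was also lost without MO-Tbx5a+miR-19a replicate 1, with the replicate block (adjusted p = 0.0507) and with trend and robust eBayes (adjusted p = 0.0838). The call of A_15_P100359 was lost without MO-Ct replicate 1, where the change was 0.53.

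Probe A_15_P120667 of hnrpkl (NM_212991), related to hnRNP K, was called higher in all 3 comparisons. It read 11.98, 11.24 and 11.35 in MO-Tbx5a+miR-19a, 11.08, 11.09 and 11.13 in MO-Tbx5a, and 10.57 and 10.63 in MO-Ct, with changes against MO-Ct of 0.92 ± 0.18 (SE, adjusted p = 0.00835) in MO-Tbx5a+miR-19a and 0.50 ± 0.18 (adjusted p = 0.0435) in MO-Tbx5a. Neither MO-Ct array could be left out without losing the call of MO-Tbx5a+miR-19a versus MO-Ct. The call of MO-Tbx5a was lost without any single array of its own comparison and under cyclic loess (adjusted p = 0.0557) and quantile normalisation (adjusted p = 0.0531), and that of MO-Tbx5a+miR-19a versus MO-Tbx5a without either MO-Ct array, any MO-Tbx5a array or MO-Tbx5a+miR-19a replicate 1. Probe A_15_P721351 of srsf10b (NM_200533), an SR protein known in mammals for repressing splicing, read 13.52, 13.23 and 13.31 in MO-Tbx5a+miR-19a, 12.37, 12.45 and 12.63 in MO-Tbx5a, and 12.72 and 12.49 in MO-Ct. MO-Tbx5a+miR-19a lay above both other groups, which overlapped, and the change against MO-Ct was 0.75 ± 0.14 (adjusted p = 0.00557), lost without MO-Ct replicate 2.

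On the lower side, A_15_P623621 of hnrnpub read 12.91, 13.21 and 13.26 in MO-Tbx5a+miR-19a, 13.72, 13.79 and 13.86 in MO-Tbx5a, and 13.95 and 13.84 in MO-Ct. The change against MO-Ct was -0.77 ± 0.13 (SE, adjusted p = 0.00397) in MO-Tbx5a+miR-19a, and -0.11 ± 0.13 in MO-Tbx5a, which was not called. This was the 1 call of the 12 that held whichever array was left out. The hnrnpub probe A_15_P749846 was also called lower than MO-Ct in MO-Tbx5a+miR-19a, and this call was lost without MO-Ct replicate 1. The remaining calls were A_15_P653088 of hnrpkl (0.64), A_15_P133766 of srsf1b (0.63), A_15_P748891 of prpf19 (0.51) and A_15_P621261 of snrpc (0.49) on the higher side, and A_15_P118595 of hnrnpabb (-0.54) and A_15_P638381 of srsf7b (-0.44, at a level of 5.22, 5.23 and 5.18 in MO-Tbx5a+miR-19a against 5.80 and 5.50 in MO-Ct) on the lower. Each of these was lost without MO-Ct replicate 1 and without MO-Ct replicate 2. Kit and treatment cannot be told apart in this comparison.

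**Figure D5:**
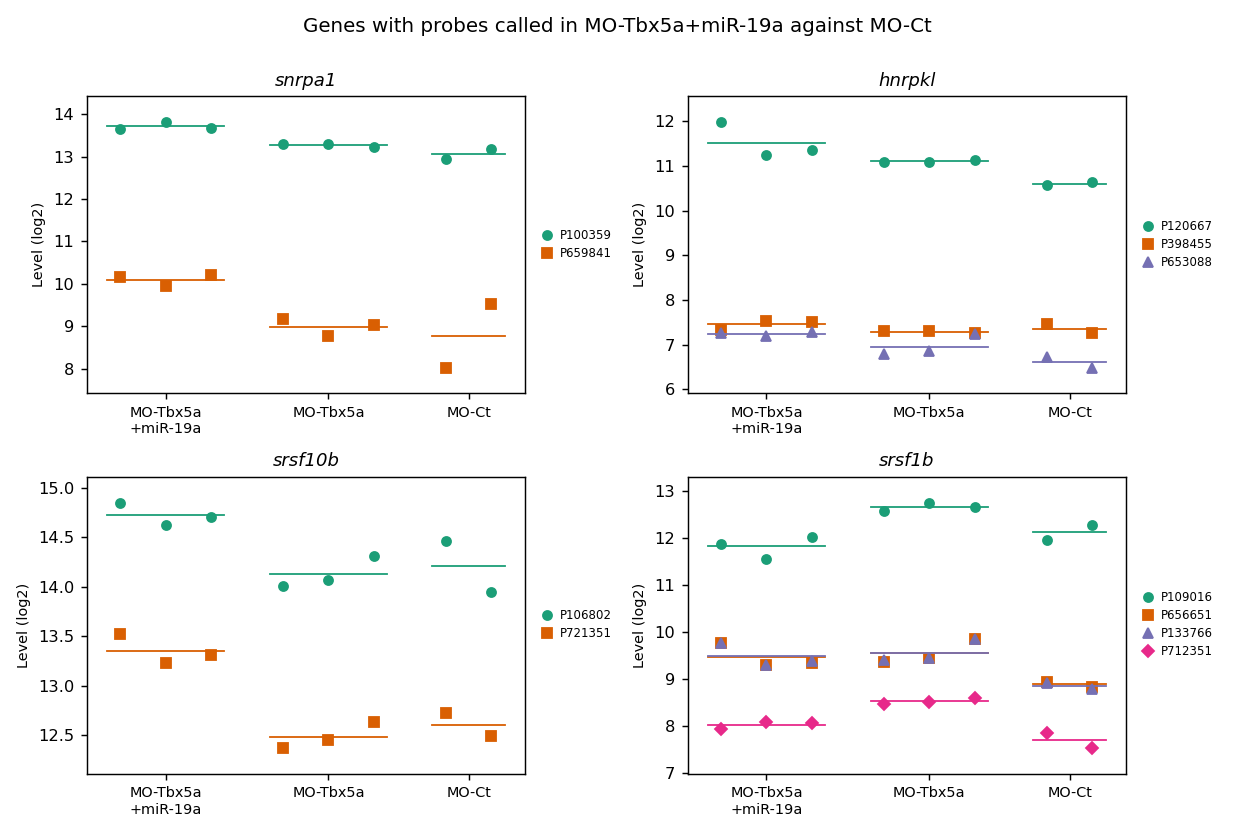
Level (log2) of every probe of snrpa1, hnrpkl, srsf10b and srsf1b on every array, with a symbol per probe and a bar for each group mean (n = 3, 3 and 2 arrays). The MO-Ct arrays of snrpa1 probe A_15_P659841 lie at 8.03 and 9.52, and the srsf1b probes A_15_P656651 and A_15_P133766 nearly coincide.

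Other genes of the splicing machinery were read from a list of 133 genes outside the rule, of which 109 had 254 probes. In MO-Tbx5a versus MO-Ct 61 of these probes were higher (24%) and 66 lower (26%), beside 18.7% and 19.6% of all probes, with a median change of -0.01. In MO-Tbx5a+miR-19a versus MO-Tbx5a 67 were higher (26.4%) and 68 lower (26.8%), beside 20.2% and 21.9% of all probes, with a median of 0.04. Versus MO-Ct, 8.66% were called in MO-Tbx5a+miR-19a, beside 11.2% of all probes, with 11 higher and 11 lower. Members had 28.3% lower and 12.5% higher, whereas this wider list had nearly as many higher as lower probes, both above the shares of all probes. The difference between the lists was not tested. Single genes of the list, chosen after their values were seen, gave large changes in MO-Tbx5a versus MO-Ct either way. Both probes of txnl4a, a U5 protein, were lower (-0.57 and -1.84), as was 1 of 2 probes of rbm8a, a protein of the exon junction complex (-1.74). All 3 probes of srrm1, a coactivator that works with SR proteins, were higher (0.58 to 1.45), and so were all 4 of mbnl1, a regulator of tissue-specific exons (0.42 to 0.88).

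Markers of embryonic tissues moved in the same comparison. In MO-Tbx5a versus MO-Ct 3 of 4 skeletal muscle, 3 of 3 lens and 2 of 3 pigment markers were called lower in limma. So were 2 of 2 endothelial and 1 of 3 erythroid markers. Higher were 1 of 2 heart, 1 of 3 epidermal and 1 of 2 notochord and cartilage markers. Neither the 5 neural markers nor the 1 endoderm and liver marker was called. The heart marker called higher, nppa, was dim, at 5.89, 5.72 and 5.89 in MO-Tbx5a and 5.57 and 5.31 in MO-Ct. The other heart marker, myl7, was not called. The paper cites earlier work in which nppa expression decreased after Tbx5a depletion. By in situ hybridisation at a later stage, the paper also reports recovered expression of its tested genes, nppa among them, in many morphants given miR-19a. Those signals were read in heart and fin, whereas the arrays were made from whole embryos at an earlier stage. With nppa this dim, the array values cannot decide whether it fell in the heart. The mean of the skeletal muscle markers ranged over 15.71 to 16.01 in MO-Tbx5a+miR-19a arrays, 15.32 to 15.63 in MO-Tbx5a and 15.91 to 16.02 in MO-Ct. For lens it ranged over 9.77 to 10.81 in MO-Tbx5a+miR-19a, 10.28 to 10.49 in MO-Tbx5a and 11.40 to 11.60 in MO-Ct. The heat shock gene hsp70l was lower in MO-Tbx5a, with a change of -1.54. The part of tissue composition and stress in the changes of splicing genes was not tested.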

How the data were processed

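Total RNA of pooled 24 hpf embryos was hybridised to 1-colour Agilent zebrafish arrays (8 arrays). The deposited log2 values of 39162 probes were background-corrected (normexp) and normalised between arrays (cyclic loess) by the authors with limma. The submitters' processing notes name Agilent Feature Extraction 10.7 for MO-Tbx5a and MO-Ct and 9.1 for MO-Tbx5a+miR-19a. The scan header that was read for MO-Tbx5a+miR-19a names 10.7.3.1 instead, so the version used for that group is not settled. Deposited scanner intensity values of the 3 MO-Tbx5a+miR-19a arrays were used only for flags and probe names. Probes were named from their accessions in the scans, matched to a RefSeq gene table. The scans' own gene names were not used, so probes with other accessions stayed unnamed. A symbol was found for 24716 probes (63.1%), and 14446 were left unnamed.

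In R 4.3.3, limma 3.58.1 was fitted to all 8 arrays with a mean per group. Calls needed a Benjamini-Hochberg adjusted p under 0.05 over all probes, a p under 0.05 and a fold change above 1.3. Differences between each further probe and the brightest probe of its accession were tested likewise over 11825 differences. The scripts were tested on simulated data. Arrays have no read depth; how many there are limits the precision.

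Genes named are, per comparison and family, up to 2 with the highest and up to 2 with the lowest change, taken from called probes without overlap of the groups, plus genes called in both directions in MO-Tbx5a against MO-Ct and srsf5b, which the study lists. Other named genes were chosen after their values were seen. The members and lists were chosen with earlier results of these data known. Alternatives were the replicate block, other normalisations, a filter on dim probes, eBayes options, the arrays fitted, the fold threshold, grouping by symbol and leaving out each array. The other normalisations were applied on top of the authors' normalised values. They therefore cannot show how the results depend on normalising the raw signals in another way. The position of probes on transcripts and promoter motifs were not analysed here. Columns of the series table all belonged to a sample.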

Additional observations from a re-analysis of the deposited data

How the results depend on the processing

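Calls of MO-Tbx5a versus MO-Ct and of MO-Tbx5a+miR-19a versus MO-Tbx5a were within 1.5 times of the stated counts under every normalisation, filter and eBayes option tried. Each normalisation was run on values already normalised by the authors, not on raw signals. No named probe that was called changed sign under any alternative run. The named probes kept their call or its absence in 344 combinations of probe and alternative and lost a call in 8 for MO-Tbx5a+miR-19a versus MO-Tbx5a. For MO-Tbx5a versus MO-Ct 487 stayed, 20 lost a call and 5 gained one, and for MO-Tbx5a+miR-19a versus MO-Ct 95 stayed and 48 lost a call. With a fold change above 2, member probes called were 23 in MO-Tbx5a+miR-19a versus MO-Tbx5a, 16 in MO-Tbx5a versus MO-Ct, and only 1 in MO-Tbx5a+miR-19a versus MO-Ct. Of all 39162 probes 3306, 2900 and 513 were called in the same order. Differences within transcripts were 14, 13 and 0 for members, and 1660, 1487 and 138 of all 11825, since the stricter fold admits fewer. No transcript then had calls in both directions.

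In MO-Tbx5a+miR-19a versus MO-Ct, cyclic loess gave 17 member probes, and 75th-percentile scaling gave 15, with 12 higher and 3 lower in place of 8 and 4. Of all 39162 probes these settings called 4305 and 4338, beside 4384 in the main fit. The cause of the higher member counts was not tested. Leaving out 1 array at a time, member probes called ranged over 70 to 79 in MO-Tbx5a+miR-19a versus MO-Tbx5a, 51 to 65 in MO-Tbx5a versus MO-Ct and 3 to 18 in MO-Tbx5a+miR-19a versus MO-Ct. Differences within transcripts ranged over 37 to 48, 27 to 41 and 0 to 4. In MO-Tbx5a+miR-19a versus MO-Ct, 3 probes were called without MO-Ct replicate 1 and 4 without MO-Ct replicate 2. Dropping replicate 1 or 3 of MO-Tbx5a+miR-19a gave 6 and 8, and 18 were called without MO-Tbx5a replicate 3. Of all 39162 probes these fits called 2387, 2875 and 5545. Where 1 MO-Ct array was left, it was assumed to vary like the other groups. Calls in both directions in MO-Tbx5a versus MO-Ct were made for prpf19 and srsf2a under every alternative but the stricter fold.

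Replicate numbers did not pair the arrays, since deviations of same-numbered arrays correlated at -0.222 to 0.178. With the replicate block, member probes called were 75 in MO-Tbx5a+miR-19a versus MO-Tbx5a, 60 in MO-Tbx5a versus MO-Ct, and only 5 in MO-Tbx5a+miR-19a versus MO-Ct. Of all 39162 probes 16469, 14159 and 2162 were called in the same order. Differences within transcripts were 45, 31 and 0 for members, and 5365, 4191 and 76 of all 11825.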

Other observations

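Older symbols of 6 genes began with the same letters, and their 12 probes were read apart from the members. All 3 probes of sfswap, a regulator of alternative splicing, were higher in MO-Tbx5a versus MO-Ct, with changes of 0.60, 1.06 and 0.41, and lower in MO-Tbx5a+miR-19a versus MO-Tbx5a, with changes of -0.59, -0.93 and -0.58. Probe A_15_P271466 of pnisr, an SR-related protein, read 9.77, 9.94 and 9.47 in MO-Tbx5a+miR-19a, 11.70, 11.57 and 11.74 in MO-Tbx5a, and 10.23 and 10.04 in MO-Ct, so that MO-Tbx5a lay above both other groups. It was higher by 1.54 in MO-Tbx5a versus MO-Ct (adjusted p = 1.6e-05, limma), while the brighter pnisr probe had a change of -0.12 and was not called. Of snrnp70, the U1 protein that binds the U1 RNA, the dimmer probe was higher by 0.82 and the brighter had a change of -0.16 in MO-Tbx5a.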
